A study of Mus musculus with 11 samples.

Results

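The contacts described here are those between close neighbours on the chromosome. A stretch of mouse chromosome 1, from position 120200001 to 124400000 in build mm9, was divided into 420 bins of 10 kb, and all pairs of bins whose starts lay 10 or 20 kb apart were taken, by distance alone. That gave 837 of the 88410 bin pairs of a map, 419 with starts 10 kb apart (adjacent bins) and 418 with starts 20 kb apart (1 bin between them). The 420 pairs of a bin with itself served as a technical reference. Capture Hi-C, in which fixed chromatin is cut, religated and enriched for one region before sequencing, was done on tissue of mouse embryos at embryonic day 9.5, cut with DpnII after fixing in paraformaldehyde. The 4 groups were wild-type (WT) forelimb (3 libraries), wild-type forebrain (3 libraries), wild-type midhindbrain boundary (3 libraries, called midhindbrain below to keep it apart from contact boundaries) and forelimb of mutants labelled as carrying a stop cassette insertion (2 libraries, called mutant forelimb, and stop-cassette forelimb in figure legends). All 11 libraries carry the strain label c57bl6.J X 129S6.sv, and no group is labelled with a treatment, a Cre or another allele. The labels give neither the position of the cassette nor the number of embryos or mutant lines behind a library. The titles of the WT forelimb libraries also carry the tag CD1 and lower library numbers than the other 8 libraries, so strain tag and library series cannot be told apart from group wherever that map stands alone. The mutant libraries are also numbered apart from the brain libraries, so library series cannot be told apart from group where the mutant map stands alone.

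How often neighbouring segments of a chromosome meet depends mostly on their closeness along the fibre, and beyond that on local folding. Where a boundary between contact domains lies between neighbours, fewer contacts than usual are known to cross it. Contacts of a bin with itself also hold ligation products of very short fragments and are therefore the readout most open to library preparation. The region holds En1, a homeobox gene needed for dorsal-ventral patterning of the limb and for the midbrain-hindbrain boundary, and the title of the series names Maenli, a long non-coding RNA, beside limb malformations dependent on En1. A stop cassette is an insert built to end transcription. In gene order, En1 lies between Marco and Insig2, with C1ql2, Steap3 and Gli2 farther on the Marco side and Ccdc93, Htr5b, Ddx18 and Dpp10 beyond Insig2. That order comes from a RefSeq gene table of the assembly GRCm38, a build other than that of the maps, so no gene start or gene desert was placed on a bin and no sequence is shown.

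Each group was represented by 1 map that merged its libraries, so there is no replicate error. Intervals cover counting error only, read pairs without molecular identifiers are not independent molecules, and in bulk tissue a change in the share of cells cannot be told apart from a change within cells. The maps held between 7662227 and 9523316 contacts. Adjacent bins had a median of 2672 contacts in WT forelimb, 2823 in forebrain, 3071 in midhindbrain and 2396 in mutant forelimb. At a separation of 20 kb the medians were 1242 contacts in WT forelimb and 1041 in mutant forelimb. No pair of either distance was empty in any map, and the fewest contacts of any pair were 117. Counting error alone was therefore small, with a counting SD of 1.93% for the median adjacent pair in WT forelimb and 2.04% in mutant forelimb.

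Over all contacts, same-bin ones included, close neighbours took between 18.53% and 19.76% in the 4 maps. Pairs at 10 and 20 kb together made up 19.12% of all contacts in WT forelimb (Wilson 95% interval 19.10 to 19.15) and 18.53% in forebrain (18.51 to 18.56). They made up 19.76% in midhindbrain (19.73 to 19.78) and 19.15% in mutant forelimb (19.12 to 19.17). On this scale the forelimb maps had overlapping intervals, and the brain maps lay on either side of them. Over contacts between different bins the order was another, with 23.6% in WT forelimb, 24.7% in forebrain, 26.2% in midhindbrain and 25.8% in mutant forelimb, so that WT forelimb was lowest. The same-bin share, in contrast, was 18.9% in WT forelimb but 25.1% in forebrain, 24.7% in midhindbrain and 25.8% in mutant forelimb. The WT forelimb map stood apart from the other 3 in this technical reference, the same split as the CD1 tag and library series.

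The 2 distances did not shift together. At 10 kb the share was 13.0% in WT forelimb and in forebrain, 13.8% in midhindbrain and 13.4% in mutant forelimb. At 20 kb it was highest in WT forelimb, at 6.15%, against 5.55% in forebrain, 5.92% in midhindbrain and 5.75% in mutant forelimb. The ratio of 20 kb to 10 kb contacts was 0.474 in WT forelimb and between 0.428 and 0.429 in the other 3 maps. The fall of contact from the first to the second neighbour was thus shallower in the WT forelimb map than in all others, along the same split as the same-bin share. These shares depend on the total, which holds the same-bin contacts. Set against contacts from 30 kb to 1 Mb, adjacent bins had 0.235 contacts per longer contact in WT forelimb, 0.258 in forebrain, 0.278 in midhindbrain and 0.281 in mutant forelimb. At 20 kb the ratios were 0.111 in WT forelimb, 0.110 in forebrain, 0.119 in midhindbrain and 0.121 in mutant forelimb, so WT forelimb was not the highest on this scale.

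**Figure D1:**
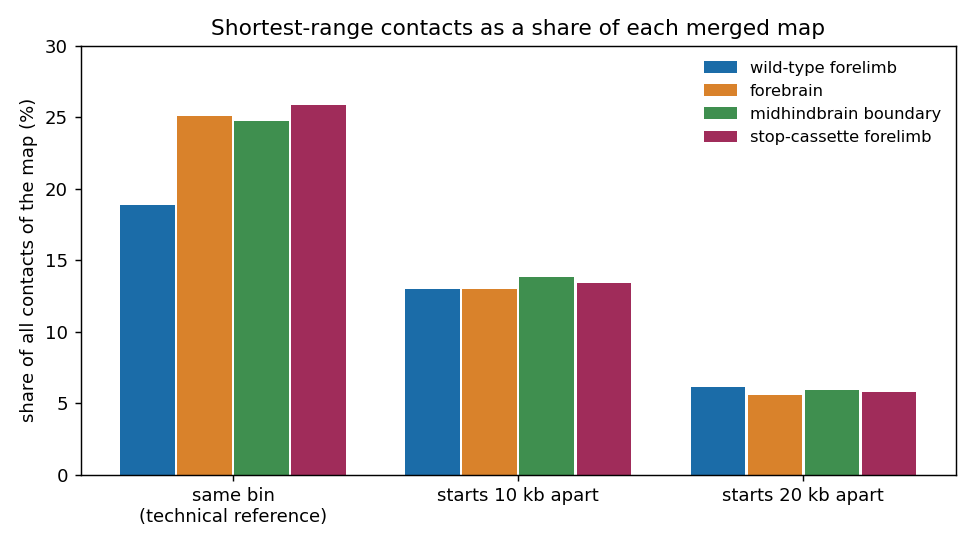
Share of all contacts of each merged map, in percent, that fell within 1 bin, between bins with starts 10 kb apart and between bins with starts 20 kb apart. The same-bin bar of WT forelimb, at 18.9%, is below those of the other 3 maps, while the bars at 10 kb lie between 13.0% and 13.8%.

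To compare places along the region, each pair was given a level, the log2 of its balanced (Knight-Ruiz, KR) signal over the mean signal of all pairs at that distance in the same map. A level of 0 is the average for that distance, and each unit is a doubling. Levels of adjacent bins had an SD of 0.30 in WT forelimb, 0.34 in forebrain, 0.31 in midhindbrain and 0.30 in mutant forelimb, where counting alone gives between 0.030 and 0.034. The 95th percentile was 1.96 times the 5th in WT forelimb and 2.18 times in forebrain. Levels at 20 kb varied less, with SDs from 0.26 to 0.30, and followed those at 10 kb, with Pearson's r between 0.65 and 0.74 over 417 places that share bins and balancing factors. Same-bin levels, the technical reference, varied more, with SDs of 0.40 in WT forelimb, 0.43 in forebrain, 0.40 in midhindbrain and 0.44 in mutant forelimb. Levels of close pairs thus varied along the region far beyond counting error, though less than same-bin levels, and largely in the same places at both distances. The technical part of that spread was not tested.

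Balancing bears on these levels. Raw counts of adjacent bins varied more, with SDs from 0.77 to 0.80, and followed the raw same-bin counts with r between 0.82 and 0.88 over 419 pairs. After balancing, the levels of adjacent bins were nearly unrelated to those of the same bins, with r of 0.14 in WT forelimb, -0.05 in forebrain, -0.06 in midhindbrain and -0.09 in mutant forelimb. Because balancing forces every bin to the same summed signal, same-bin contacts enter each factor. With factors taken only from contacts at 30 kb or more, the SDs were 0.40, 0.44, 0.41 and 0.39 in the same order, and r with the same-bin levels was between 0.43 and 0.54. Which of these reflects folding was not tested.

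The profile was much alike in all 4 maps. Over the 419 adjacent pairs, Pearson's r was 0.98 between forebrain and midhindbrain, 0.96 between WT forelimb and forebrain and 0.95 between WT forelimb and midhindbrain. Between the forelimb maps it was 0.94, and between mutant forelimb and the brain maps 0.93. At 20 kb the values were lower and in a like order, from 0.95 between the brain maps to 0.89 between midhindbrain and mutant forelimb. Pairs in these correlations share capture design and restriction sites in every map. The map farthest from the median of the other 3 was WT forelimb at 132 of the 419 adjacent pairs and mutant forelimb at 131, against 79 for forebrain and 77 for midhindbrain. At 20 kb the mutant map was farthest at 153 of 418 pairs and WT forelimb at 93. The same-bin reference showed this too: the mutant map was farthest at 179 of 420 bins and WT forelimb at 134, against 56 for forebrain and 51 for midhindbrain. The mutant map also held the fewest contacts, 7662227.

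**Figure D2:**
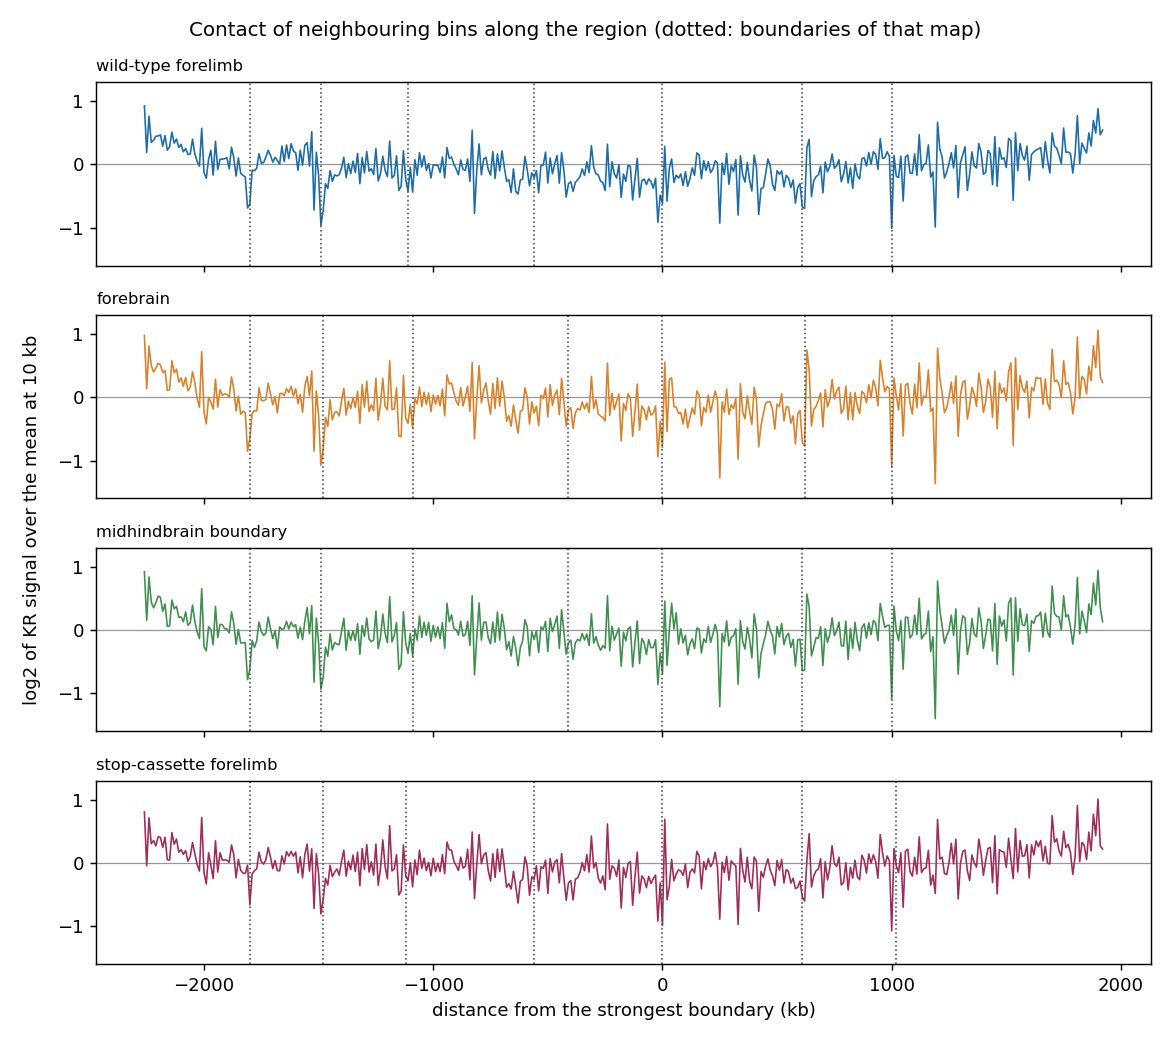
Level of each pair of adjacent bins (log2 of KR signal over the mean at 10 kb) against distance from the strongest boundary in kb, 1 panel per map, with dotted lines at the boundaries of that map. The same narrow dips recur in the 4 panels, and levels are highest at both ends of the region.

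Broad trends lay under the narrow dips. Averaged over windows of 200 kb, adjacent bins had their highest levels at the ends of the region, from 0.30 to 0.40 in the first window and from 0.28 to 0.35 in the last. The window from 122400001 to 122600000, which holds the strongest boundary, averaged -0.26 in WT forelimb, -0.23 in forebrain, -0.17 in midhindbrain and -0.24 in mutant forelimb. The domains between boundaries called in WT forelimb showed the same. The median level in the domain from 121910001 to 122470000 was -0.22 in WT forelimb, -0.17 in forebrain, -0.16 in midhindbrain and -0.20 in mutant forelimb. In the next domain, from 122470001 to 123080000, it was -0.16 in WT forelimb, -0.18 in forebrain and -0.11 in both midhindbrain and mutant forelimb. The last domain, from 123470001 to 124400000, had medians from 0.14 to 0.16. In KR signal, domains on both sides of the strongest boundary thus had below-average contact of adjacent bins, and the last domain above-average contact, in all 4 maps.

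Both the high ends and the low centre depend on balancing, and a bin at an end has partners on 1 side only. With factors taken only from contacts at 30 kb or more, both were stronger than in KR signal. The first window then averaged between 0.42 and 0.62 and the last between 0.52 and 0.63. The window of the strongest boundary averaged -0.43 in WT forelimb, -0.41 in forebrain, -0.30 in midhindbrain and -0.43 in mutant forelimb. In raw counts the first window averaged between -0.034 and 0.032 and the last between -0.72 and -0.54. The window of the strongest boundary averaged between 0.041 and 0.073 in raw counts and the next window to the right between 0.046 and 0.20, both above average. The 5 highest adjacent pairs of WT forelimb all lay within 200 kb of an end: those starting at 120200001 (level 0.93), 124360001 (0.88), 124270001 (0.77), 120220001 (0.76) and 124340001 (0.70). The pair at 120200001 and 120210001 had 2668 contacts in WT forelimb, 3070 in forebrain, 3093 in midhindbrain and 2858 in mutant forelimb, with levels of 0.93, 0.98, 0.93 and 0.81. The pair starting at 124340001 touches a thinly covered bin (among the 21 bins with the fewest contacts) and had 883 contacts in WT forelimb. Of these 5 pairs, 3 had raw levels below 0: -0.034 at 120200001, -0.066 at 124360001 and -1.63 at 124340001.

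The lowest adjacent pairs marked narrow places where neighbours met least. The lowest of all in WT forelimb joined the bins starting at 123460001 and 123470001, with 655 contacts in WT forelimb, 690 in forebrain, 739 in midhindbrain and 723 in mutant forelimb. Its levels were -1.01, -1.10, -1.09 and -1.07, and it ranked 1st, 3rd, 3rd and 1st from the lowest of 419. This pair crosses a boundary of the 3 wild-type maps. The pair at 120970001 and 120980001 also crosses a boundary, and had levels of -0.96 in WT forelimb, -1.08 in forebrain, -0.93 in midhindbrain and -0.80 in mutant forelimb.

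The other 3 of the lowest 5 crossed no boundary. The bins at 123650001 and 123660001, of which the first is thinly covered, had 663 contacts in WT forelimb, 589 in forebrain, 581 in midhindbrain and 984 in mutant forelimb. Their level was -0.99 in WT forelimb, -1.36 in forebrain, -1.40 in midhindbrain and -0.48 in mutant forelimb, so the lowest pair of both brain maps ranked only 26th from the lowest in the mutant map. The pair at 122710001 and 122720001 had levels of -0.93, -1.27, -1.21 and -0.89 in the same order of maps, lower in the brain maps than in the forelimb maps. The pair at 122440001 and 122450001, 20 kb to the left of the strongest boundary, had levels of -0.91, -0.94, -0.86 and -0.92. The next below these, just outside the 5, were -0.80 at 122790001, -0.79 at 122880001 and -0.77 at 121640001 in WT forelimb, of which the last 2 touch thinly covered bins. Same-bin contact was not low at all of these dips: the left bin's own level in WT forelimb was 0.78 at 123460001, 0.78 at 123650001 and 0.89 at 122710001, but -0.18 at 120970001 and -0.71 at 122440001. Of the 20 lowest adjacent pairs, 12 were shared by all 4 maps.

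Boundaries were located with a score that left out the short-range pairs themselves. It was computed on KR signal, whose factors hold contacts of all distances, so the score and the short-range levels are not fully independent. An insulation score, the log2 of the mean signal in a 200 kb square across each bin edge over its mean in the map, was computed from pairs at 30 kb or more, and 7 minima passed in each map. Adjacent bins on opposite sides of a boundary had a median level of -0.63 in WT forelimb, -0.77 in forebrain, -0.64 in midhindbrain and -0.54 in mutant forelimb. These are 0.647, 0.587, 0.641 and 0.689 times the mean for that distance. The median over all 419 adjacent pairs was between -0.05 and -0.03. All 7 crossing pairs lay below the median of their map in each of the 4 maps. Below the 5th percentile lay 5 of 7 in each wild-type map and 3 of 7 in the mutant map. The mutant value rests on where its boundaries were placed: at the positions called in WT forelimb its median was -0.66. With an insulation square of 100 kb the medians were -0.47, -0.41, -0.41 and -0.22 in the usual order of maps, and with 300 kb the mutant median was -0.26. Pairs with starts 20 kb apart that cross a boundary, 14 per map, had medians from -0.64 in forebrain to -0.46 in mutant forelimb, and all of them lay below the median of their distance except 1 in the mutant map.

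In WT forelimb the dip was deepest at the crossing pair, with lesser lows beside it. Averaged over its boundaries, the crossing pair stood at -0.65, the pair 10 kb to its left at -0.27 and the pair 10 kb to its right at -0.18. The pairs 20 and 30 kb to the left stood at -0.17 and -0.29, and those 20 and 30 kb to the right at -0.26 and -0.03. In forebrain the pair 10 kb to the left stood at -0.49, beside -0.69 at the boundary, and in the mutant map the pair 20 kb to the left, at -0.52, was lower than the crossing pair, at -0.46. The 14 bins that flank the boundaries had a median same-bin level of -0.19 in WT forelimb, -0.29 in forebrain, -0.21 in midhindbrain and -0.22 in mutant forelimb, against -0.09 over all bins, and 8 or 9 of the 14 lay below the median. With factors from contacts at 30 kb or more, the medians of the crossing pairs were -0.86, -0.89, -0.85 and -0.75. Dips were not confined to boundaries: of the 20 lowest adjacent pairs of WT forelimb, 5 crossed a boundary, 10 lay within 20 kb of one and 7 lay over 50 kb away, where 8.35% of all adjacent pairs lie within 20 kb. Over the 381 edges scored, the level of the adjacent pair followed the insulation score weakly, with r from 0.19 in midhindbrain to 0.32 in WT forelimb.

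**Figure D3:**
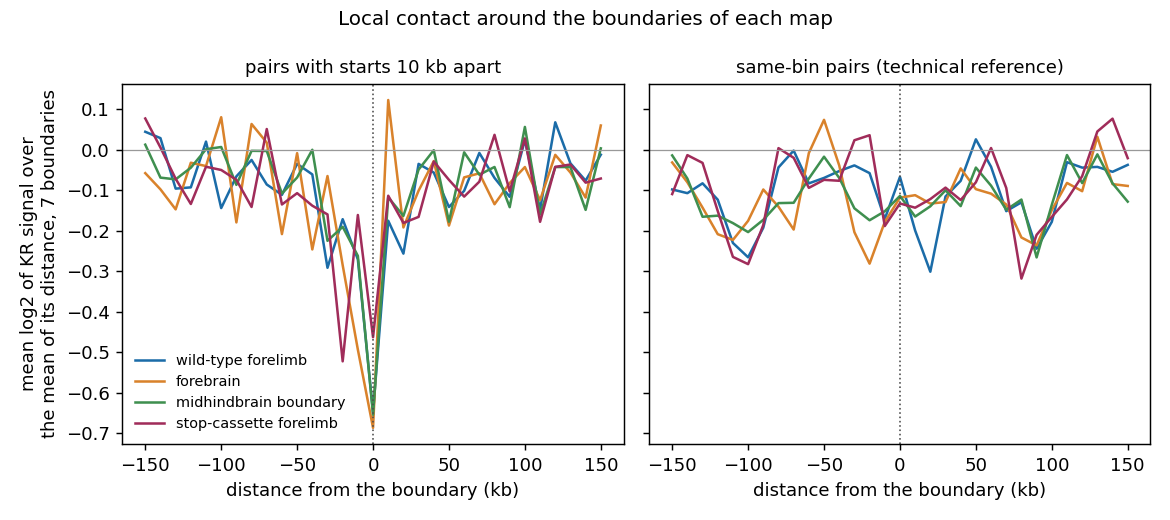
Mean level over the 7 boundaries of each map (log2 of KR signal over the mean of its distance) against distance from the boundary in kb, for adjacent pairs on the left and same-bin pairs on the right. The adjacent pairs drop to between -0.69 and -0.46 at the boundary, with a further low of -0.52 in the mutant map 20 kb to the left, and the same-bin pairs show no drop centred there.

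Boundaries differed in how far neighbours were parted. At the strongest boundary, 122470001, the pair of bins at 122460001 and 122470001 had 787 contacts in WT forelimb, 744 in forebrain, 861 in midhindbrain and 542 in mutant forelimb. The levels were -0.62, -0.80, -0.69 and -0.98, lowest in the mutant map, where this was the 2nd lowest pair of 419. The boundary at 120670001 gave levels of -0.63, -0.65, -0.62 and -0.66, almost equal in the 4 maps. Near 120980001 both the pair crossing that edge and the next, at 120980001 and 120990001, were low, the latter at -0.73 in WT forelimb, -0.81 in forebrain, -0.74 in midhindbrain and -0.57 in mutant forelimb. The boundary was called at 120980001 in WT forelimb and midhindbrain and 10 kb to the right in the other maps. At 123080001 the crossing pair had levels of -0.67, -0.72, -0.64 and -0.54, and at the next edge, called in forebrain in its place, the levels were -0.70, -0.77, -0.63 and -0.60.

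The weaker boundaries showed smaller dips. Around 121360001, where the maps placed the boundary at 121350001, 121360001 or 121380001, the crossing pairs had levels between -0.48 and -0.19 over the maps and edges. At 121910001, called in both forelimb maps, the levels were -0.21 in WT forelimb, -0.25 in forebrain, -0.15 in midhindbrain and -0.26 in mutant forelimb. At 122060001, called in both brain maps, they were -0.30, -0.19, -0.20 and -0.31, so the crossing pair was not lower in the maps that called the boundary. At the right, the mutant map placed its boundary at 123490001, where its crossing pair, which touches a thinly covered bin, was at -0.04. Its dip of -1.07 stayed at 123470001, the edge called in the other 3 maps.

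Differences between maps were tested pair by pair. The counts of a pair in 2 maps were set against the share expected from both maps' factors and the mean of that distance, with an exact binomial test adjusted by Benjamini-Hochberg over all pairs from 10 kb to 1 Mb, and a pair was called if that p was under 0.05 and the maps differed 1.2-fold or more. The test sets the reads of a pair of merged maps against each other and holds no spread between embryos. WT forelimb enters 3 of the 4 comparisons, which are therefore not independent. No pair of the 837 differed 2-fold in any comparison.

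Between mutant and WT forelimb, few neighbouring pairs differed, and the 3 with the largest increases were dips in the wild-type maps. Of the 837 pairs 16 were called (1.91%), 10 at 10 kb and 6 at 20 kb, against 0.215% of all 36270 pairs tested. They split into 8 higher in the mutant map (background 0.127%) and 8 lower (background 0.0882%). The median log2 ratio of the members was 0.00, beside 0.01 over all pairs. The expected share uses each map's own mean at that distance, which largely fixes this median. Neither the median nor the even split can therefore show a shift common to all members. Close pairs had a median of 3220 contacts over both maps against 130 for pairs at 60 kb or more, so smaller folds could be called among them. Of the same-bin pairs 7.86% were called, 33 of 420, and their variance was 16.0 times counting error, against 6.13 times for adjacent bins. With the variance at each distance inflated by its mean excess over counting error, 2 of the 16 calls remained. Without bin factors there were 108 calls, 66 of them higher, and with factors from contacts at 30 kb or more 20 calls, 13 of them higher. Scaling to contacts from 30 kb to 1 Mb, which moved the median of the members by 0.20, gave 250 calls, all higher in the mutant map.

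The largest difference lay 10 kb to the left of the boundary at 120670001. The bins at 120650001 and 120660001 had 2134 contacts in WT forelimb, 2141 in forebrain, 2342 in midhindbrain and 2585 in mutant forelimb. Levels were -0.69 in WT forelimb, -0.85 in forebrain, -0.78 in midhindbrain and -0.03 in mutant forelimb. The 3 wild-type maps thus had 2 low pairs side by side, and the mutant map had the boundary-crossing pair alone. The log2 ratio of mutant to WT forelimb was 0.66 (95% counting interval 0.58 to 0.74, exact test, adjusted p = 1.5e-50), and the call remained with inflated variance (adjusted p = 7.4e-06) and without bin factors, where the ratio was 0.43.

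Around the dip at 123650001 the mutant map was flatter. The adjacent pair given above, at -0.48 against levels from -1.40 to -0.99 in the wild-type maps, had a log2 ratio to WT forelimb of 0.51 (counting interval 0.37 to 0.66, exact test, adjusted p = 8.1e-09). The pair at 123640001 and 123660001, 20 kb apart, had 449 contacts in WT forelimb and 631 in mutant forelimb, with levels of -0.73, -0.73, -0.83 and -0.16 in the usual order of maps and a log2 ratio of 0.57 (exact test, adjusted p = 4.7e-07). The pair at 123660001 and 123680001, above average elsewhere, was lower in the mutant map: 1463 against 1052 contacts, levels of 0.44, 0.52, 0.47 and 0.08, and a log2 ratio of -0.36 (exact test, adjusted p = 1.9e-06). Low pairs were higher and a high pair lower at this place in the mutant map, against all 3 wild-type maps. With inflated variance none of these 3 calls remained, and the lower one was also lost without bin factors (log2 ratio -0.18) and when scaled to longer contacts (-0.24). Same-bin log2 ratios of mutant to WT forelimb were -0.12 at 123640001 and at 123650001, 0.01 at 123660001 and 0.26 at 123680001. Their part in these calls was not tested.

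At the strongest boundary the crossing pair was lower and the next pair higher in the mutant map. The crossing pair, with the counts given above, had a log2 ratio to WT forelimb of -0.36 (counting interval -0.53 to -0.21, exact test, adjusted p = 0.0054). That call was lost with factors from contacts at 30 kb or more (log2 ratio -0.27), when scaled to longer contacts (-0.098) and with inflated variance (adjusted p = 0.99 in place of the exact test). The next pair inside the domain on the right, at 122470001 and 122480001, had 3010 contacts in WT forelimb, 4036 in forebrain, 3901 in midhindbrain and 3702 in mutant forelimb. Its levels were 0.29, 0.56, 0.46 and 0.69, lowest in WT forelimb, with a log2 ratio between the forelimb maps of 0.41 (exact test, adjusted p = 1.9e-26), the second call that remained with inflated variance (adjusted p = 0.043). Here WT forelimb was the map farthest from the others. The other named lower pairs, both 20 kb apart, started at 123550001 (550 against 735 contacts, log2 ratio -0.35) and 121810001 (687 against 1054 contacts, log2 ratio -0.33). In the usual order of maps the levels were -0.11, -0.29, -0.33 and -0.47 at the first and -0.10, -0.29, -0.29 and -0.43 at the second. WT forelimb was the map farthest from the others at both. Both calls were lost with factors from contacts at 30 kb or more (-0.16 and -0.22), when scaled (-0.23 and -0.21) and with inflated variance. The first was also lost without bin factors (-0.12). Same-bin log2 ratios of the left and right bins were 0.30 and 0.02 at the first, and 0.05 and 0.16 at the second. Of the 16 called pairs, the mutant map was the farthest from the other 3 at 10 and WT forelimb at 6, 3 touched a thinly covered bin, and 4 lay within 20 kb of a boundary, as do 12.2% of all members.

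**Figure D4:**
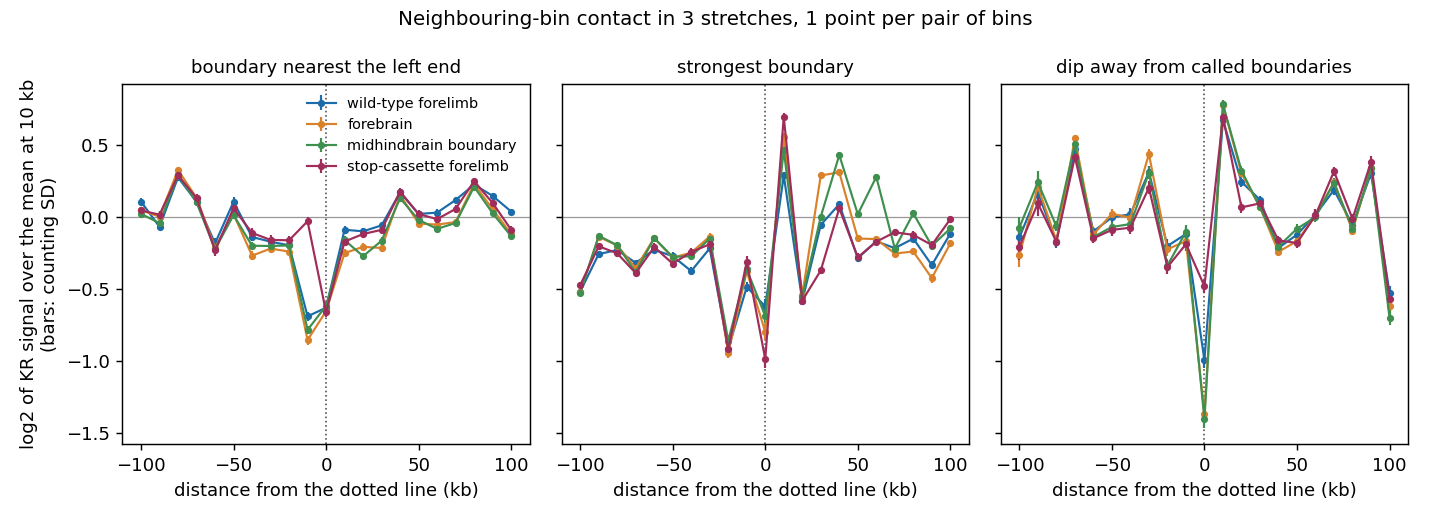
Level of adjacent pairs (log2 of KR signal over the mean at 10 kb, bars counting SD) in the 4 maps over 100 kb each side of the boundary at 120670001, the strongest boundary and the dip at 123660001. The mutant points leave the other 3 maps 10 kb left of the first boundary and at the dip of the third panel, and the midhindbrain point lies above the others at the pair starting at 122520001, right of the strongest boundary.

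WT forelimb and forebrain differed at 15 of the 837 pairs (1.79%), 10 at 10 kb and 5 at 20 kb, beside a background of 0.499% of 36246 pairs. Of these 8 were higher in forelimb (background 0.171%) and 7 lower (background 0.328%). Same-bin pairs were called at 0.952%, 4 of 420. The median log2 ratio of the members was 0.01 and that of all pairs 0.00, the first again largely fixed by the scaling. Inflated variance left 2 calls, both lower in forelimb. Scaling to longer contacts moved the members' median to -0.06 and gave 33 calls, of which 31 were lower. Without bin factors 19 of 52 calls were higher, and with factors from contacts at 30 kb or more 8 of 20.

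The 4 named pairs higher in forebrain lay to the right of the boundary at 122470001 and on both sides of that at 123080001. The largest difference was at 123090001 and 123100001, the second bin being thinly covered, with 1170 contacts in WT forelimb, 2143 in forebrain, 2037 in midhindbrain and levels of 0.26, 0.75, 0.57 and, in mutant forelimb, 0.05. Both brain maps were above both forelimb maps there, and the log2 ratio of forelimb to forebrain was -0.49 (counting interval -0.59 to -0.38, exact test, adjusted p = 2.2e-17). The bins at 122490001 and 122510001, 20 kb apart, had 1997 against 2827 contacts, levels of 0.01, 0.46, 0.25 and -0.09, and a log2 ratio of -0.45 (exact test, adjusted p = 2.4e-23). The adjacent pair at 122490001 and 122500001 had 3864 against 5528 contacts, levels of -0.06, 0.29, 0.00 and -0.37, and a log2 ratio of -0.34 (exact test, adjusted p = 1.2e-25). The mutant map was the farthest from the others at this adjacent pair, which was also called lower there than in WT forelimb (log2 ratio -0.32). These last 2 pairs, which share a bin, were the calls that remained with inflated variance. At 123050001, 20 kb apart, forelimb had 1087 against 1584 contacts (log2 ratio -0.39).

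Of the 4 named pairs higher in forelimb than in forebrain, 3 were dips that were deeper in the brain maps. These were the pair at 123650001 described above (log2 ratio 0.37, exact test, adjusted p = 0.0025), the pair at 122710001 (1110 against 954 contacts, log2 ratio 0.35, exact test, adjusted p = 5.6e-05) and the 20 kb pair at 122870001 (553 against 434 contacts, log2 ratio 0.35), which touches a thinly covered bin. The exception was at 120780001 and 120790001, with 4187 against 4060 contacts and levels of 0.06 in WT forelimb, -0.25 in forebrain, -0.28 in midhindbrain and -0.12 in mutant forelimb (log2 ratio 0.31, exact test, adjusted p = 1.9e-18). Forebrain was the lowest or second lowest map at each of these 4 pairs. With inflated variance none of the 4 calls remained. When scaled to longer contacts those at 123650001 (log2 ratio 0.23), 122710001 (0.20) and 120780001 (0.17) were lost, as was 120780001 without bin factors (0.15). With factors from contacts at 30 kb or more, 122710001 (0.21) and 122870001 (0.16) were lost.

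Against midhindbrain, WT forelimb differed at 15 pairs as well (1.79%), 9 at 10 kb and 6 at 20 kb, beside a background of 0.800% of 36240 pairs. Of these 8 were higher in forelimb (background 0.279%) and 7 lower (background 0.522%), and same-bin pairs were called at 1.43%, 6 of 420. The median log2 ratio was 0.00 for the members and 0.01 for all pairs, the first again largely fixed by the scaling. Inflated variance left 2 calls, both lower in forelimb. Scaling to longer contacts moved the members' median to -0.17 and gave 188 calls, of which 1 was higher.

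Of the 7 lower pairs, 5 lay within 100 kb to the right of the strongest boundary, a stretch chosen after the values were seen. These 5 share bins with one another, and the remaining lower pairs started at 123020001 and 123090001. The bins at 122520001 and 122530001 had 3372 contacts in WT forelimb, 3749 in forebrain, 4817 in midhindbrain and 3146 in mutant forelimb, with levels of -0.17, -0.15, 0.28 and -0.17. Midhindbrain stood alone, and the log2 ratio of forelimb to it was -0.45 (counting interval -0.51 to -0.38, exact test, adjusted p = 4.7e-39). Same-bin contact of the bin at 122530001, which is also in the next pair, was likewise highest in midhindbrain. Its level was 0.345 there, against 0.025 in WT forelimb, 0.107 in forebrain and 0.103 in mutant forelimb. The part of this in the calls was not tested. The 20 kb pair at 122510001 had levels of -0.19, -0.14, 0.24 and -0.31 and a log2 ratio of -0.43 (exact test, adjusted p = 3.9e-17). These 2 calls remained with inflated variance, and with factors from contacts at 30 kb or more their ratios were -0.72 and -0.71. The 20 kb and 10 kb pairs starting at 122500001 had log2 ratios of -0.38 and -0.34. Among pairs higher in forelimb were again the dips at 123650001 (log2 ratio 0.41, exact test, adjusted p = 0.00045) and 122710001 at 20 kb (0.36), and the pairs at 124380001 (0.41), which touches a thinly covered bin, and 120780001 (0.35). With inflated variance none of these 4 higher calls remained. When scaled to longer contacts those at 123650001 (0.16), 124380001 (0.16) and 120780001 (0.10) were lost. The last 2 were also lost without bin factors (0.26 and 0.21), and that at 122710001 with factors from contacts at 30 kb or more (0.19).

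The brain maps differed least. Midhindbrain and forebrain differed at 5 of 837 pairs (0.597%), 3 at 10 kb and 2 at 20 kb, beside a background of 0.277% of 36135 pairs. Of these 4 were higher in midhindbrain (background 0.0969%) and 1 lower (background 0.180%), and same-bin pairs were called at 0.238%, 1 of 420. With inflated variance 4 of the 5 calls remained, and scaling to longer contacts gave 21 calls, all higher in midhindbrain. Without bin factors 2 of 7 calls were higher.

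Of these 5 calls 4 lay within the 100 kb to the right of the strongest boundary, a stretch chosen after the values were seen and not tested as a place. Midhindbrain was higher at 122520001 and 122530001 (4817 against 3749 contacts, log2 ratio 0.43, counting interval 0.37 to 0.49, exact test, adjusted p = 1.4e-38), at 122510001 over 20 kb (2278 against 1927 contacts, log2 ratio 0.38) and at 122540001 (3771 against 3122 contacts, log2 ratio 0.26). The last of these passed both thresholds only narrowly, at 1.20055-fold and, with inflated variance, an adjusted p of 0.049 (normal approximation). Midhindbrain was lower at 122490001 and 122500001, with 4390 against 5528 contacts, levels of 0.00 and 0.29, and a log2 ratio of -0.29 (exact test, adjusted p = 2.1e-18). Without bin factors the ratio at 122520001 was 0.26, and with factors from contacts at 30 kb or more it was 0.70. The lower call was lost when scaled to longer contacts (-0.18), and those at 122510001 (0.14) and 122540001 (0.17) without bin factors. Forebrain was thus the highest of the 4 maps at the pair starting at 122490001 and midhindbrain the highest at that starting at 122520001. Over the 9 adjacent pairs of this stretch, which held 28676 contacts in WT forelimb and 35616 in midhindbrain, the mean signal was at a level of -0.14 in WT forelimb, -0.02 in forebrain, 0.06 in midhindbrain and -0.08 in mutant forelimb. The same-bin level of its 10 bins was -0.10, -0.11, -0.01 and -0.12, also highest in midhindbrain. In the bin at 122530001 alone it was 0.345 in midhindbrain and from 0.025 to 0.107 in the other maps. The part of capture or coverage in that was not tested. The remaining call, at 123020001 over 20 kb, had 1615 against 1222 contacts (log2 ratio 0.31) and levels of 0.21 in midhindbrain and from -0.09 to 0.01 in the other maps.

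**Figure D5:**
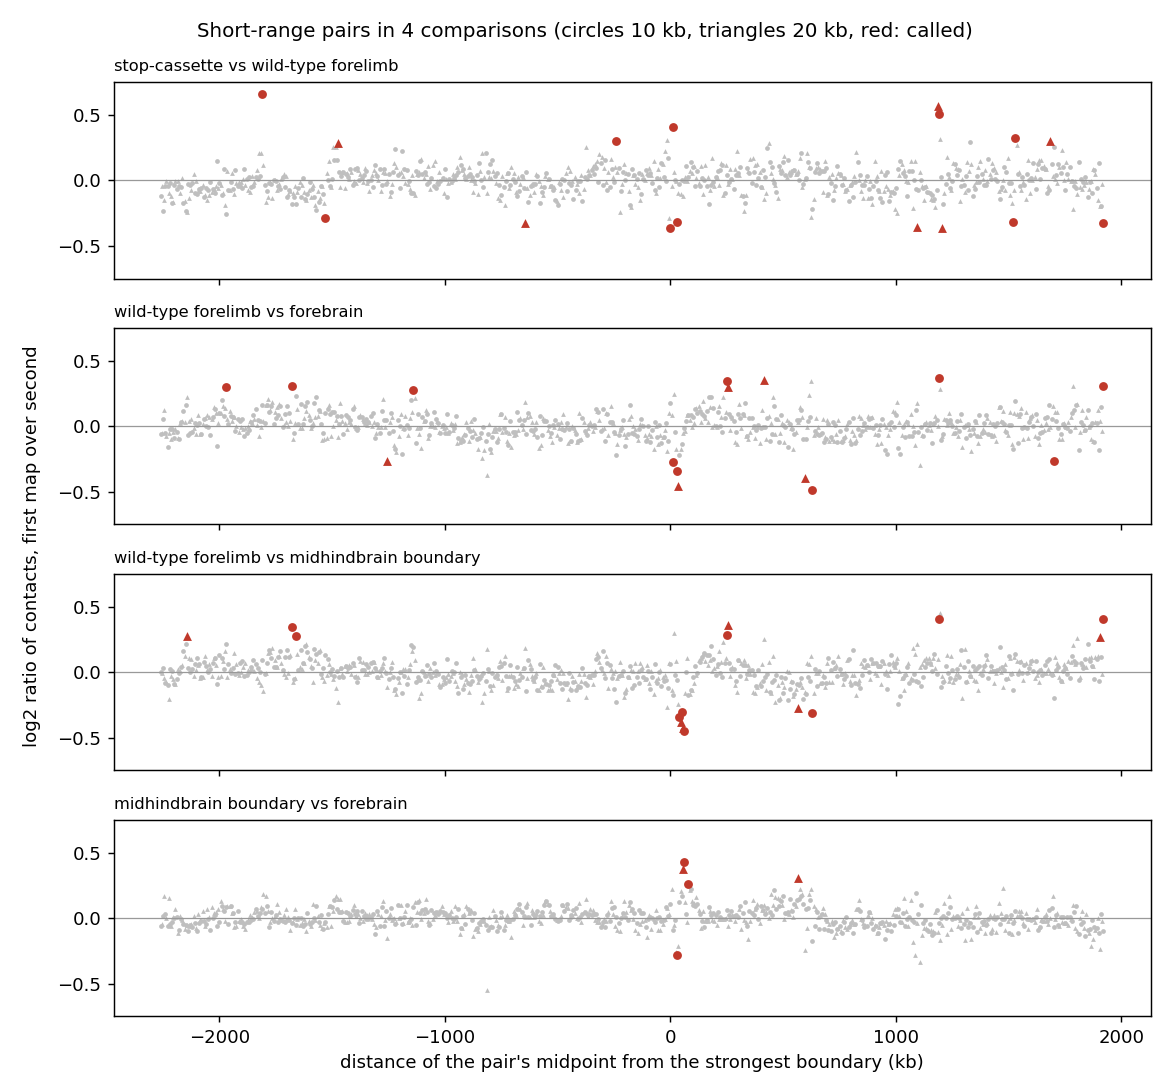
Log2 ratio of contacts, first map over second, for all 837 pairs in each of the 4 comparisons, against the distance of the pair from the strongest boundary in kb, with circles for 10 kb, triangles for 20 kb and red for called pairs. Called pairs are scattered over the region in the forelimb comparison, and 4 of the 5 called between the brain maps lie within 100 kb to the right of the boundary.

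Within a comparison, ratios at the 2 distances were related where the pairs hold the same bins. The log2 ratio at 10 kb followed that of the 20 kb pairs that share its bins with r of 0.50 between the forelimb maps, 0.40 for forelimb against forebrain, 0.49 for forelimb against midhindbrain and 0.47 between the brain maps, over 417 places each. With the next adjacent pair, r was 0.11, 0.16, 0.32 and 0.32 over 418 places. With that of the same bins, r was -0.01, -0.09, 0.17 and 0.23. These pairs share bins and factors, and the values are descriptions.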

How the data were processed

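Capture Hi-C maps of 4 groups, each merging the 2 or 3 libraries of the group, were analysed. Per the labels, whose descriptions name the maps, libraries were merged by the authors and processed with HiCUP at a mapping quality of 30 in bins of 10 kb. Bowtie2 2.3.4.1, Juicer 1.7.6 and build mm9 are named in the submitters' processing notes. Values of the raw maps, as deposited, are counts of contacts for each pair of bins. The deposited balanced maps hold a KR contact signal, which was checked to equal the count divided by the product of 2 bin factors. Totals ranged from 7662227 to 9523316 contacts.

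Levels, insulation scores (boundary: lowest within 50 kb, at least 0.2 below the lower of its flanking maxima within 200 kb) and two-sided exact binomial tests (at least 20 counts over both maps, prior count 0.5 in log2 ratios, Benjamini-Hochberg) were computed in scipy 1.17.1 and numpy 2.4.6 under Python 3.11.15 and tested on simulated data; figures used matplotlib 3.10.9. The simulated counts for the binomial test held counting error only and 1.5-fold changes. They do not show how often calls are false where the variance exceeds counting error, as it did in these maps. With inflated variance, a normal approximation replaced the exact test and the variance was multiplied by the mean squared z at each distance. Counting intervals of ratios are 95% exact (Clopper-Pearson) intervals of the share. No count model with replicates was possible, since the maps are merged. The bin pairs to name were fixed by rule: those crossing boundaries, the 5 highest and lowest in wild-type forelimb, and up to 4 called per direction and comparison. Members, lists and tests were chosen with earlier results of these data known. Alternatives varied balancing, scaling, coverage, fold, variance and boundary settings.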

Additional observations from a re-analysis of the deposited data

How the results depend on the processing

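In the order wild-type forelimb, forebrain, midhindbrain and mutant forelimb, the short-range share became 23.6%, 24.7%, 26.2% and 25.8% of off-diagonal contacts, and 19.4%, 18.9%, 20.1% and 19.5% of KR signal. The SD of adjacent levels was 0.80, 0.78, 0.79 and 0.77 in raw counts, 0.40, 0.44, 0.41 and 0.39 when balanced on contacts at 30 kb or more, 0.28, 0.32, 0.29 and 0.29 without thinly covered bins, 0.27, 0.31, 0.29 and 0.28 without the outer 200 kb, and 0.27, 0.30, 0.27 and 0.26 at 20 kb. The median of boundary-crossing pairs stayed below 0 under all 10 alternatives in each map. It was -0.86, -0.89, -0.85 and -0.75 when balanced on contacts at 30 kb or more, -0.47, -0.41, -0.41 and -0.22 with a square of 100 kb, -0.55, -0.64, -0.50 and -0.46 at 20 kb, and -0.45, -0.58, -0.51 and -0.37 relative to pairs within 100 kb, an alternative chosen after seeing the data. Over same-bin counts it moved to -0.53 in forebrain and -0.32 in mutant forelimb, and with a square of 300 kb to -0.71 in midhindbrain and -0.26 in mutant forelimb. With a square of all distances, or at the wild-type forelimb positions (both also chosen after seeing the data), the mutant median was -0.66. The cause of these shifts was not tested.

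For calls, the comparisons are taken in the order mutant against wild-type forelimb, forelimb against forebrain, forelimb against midhindbrain, and between the brain maps (16, 15, 15 and 5 calls). There were 108, 52 and 30 calls in the first 3 without bin factors, 250, 33, 188 and 21 when scaled to contacts from 30 kb to 1 Mb, and 24 and 13 in the last 2 with factors from contacts at 30 kb or more. Inflated variance left 2, 2 and 2 in the first 3. A 1.5-fold threshold left 1, 0, 0 and 0, and a 2-fold threshold 0 in each, where exact binomial tests at an adjusted p under 0.05 with no fold threshold gave 57, 63, 72 and 23. No named difference changed direction, but calls were lost: of 8, 8, 8 and 5 named, 6, 7, 6 and 3 remained without bin factors, 5, 6, 7 and 5 with factors from contacts at 30 kb or more, 4, 5, 5 and 4 when scaled to longer contacts, and 2, 2, 2 and 4 with inflated variance. Of the 5 highest pairs in wild-type forelimb, 3 turned below 0 in raw counts (-0.034, -0.066 and -1.63).

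No paired analysis was possible because the deposited maps merge the replicates of a group, and for the same reason no replicate was left out. Values at gene starts and in gene deserts were not run, since no annotation of the files' build was used here. Depth limited calls at 20 kb, where 12, 10, 9 and 5 pairs differed 1.2-fold or more and 6, 5, 6 and 2 were called; at 10 kb it was 11, 10, 9 and 3, of which 10, 10, 9 and 3 were called.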
